A study of Mus musculus with 69 samples.

Results

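Microglia of male wild-type mice exposed to myelin were compared with the same kind of cells given DMSO, with 3 libraries in each group and all expressed genes examined. These 6 libraries were taken by their labels from the microglia count table of a series of 69 samples on Tlr7 and sex, in which 24 samples were primary microglia and the other samples, from hippocampus, were not used here. The cells were cultured from postnatal pups, and the labels give sex, genotype (WT or TLR7:-/-) and treatment (myelin or DMSO), but no myelin source, dose or exposure time. The groups used below were male WT with myelin and male WT with DMSO, female WT with myelin and female WT with DMSO, and male TLR7:-/- with myelin and male TLR7:-/- with DMSO, each of 3 libraries; female TLR7:-/- cultures served only to estimate the spread. No label says whether the libraries of a group came from separate animals or cultures, and the p-values then cover just the spread between these samples, which may be technical.

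RNA was sequenced from its 3′ ends, and read counts per gene were deposited. Male WT libraries held 15492222 to 16010311 counts with myelin and 15450170 to 16072993 with DMSO, and 19383 to 19607 and 19384 to 19422 genes had at least 1 count. Tlr7, the endosomal receptor for single-stranded RNA that is deleted in the knockout, stood at 1.25 to 1.77 CPM (counts scaled to a common library size) in male TLR7:-/- libraries with myelin and 1.42 to 2.32 CPM in those with DMSO. In male WT libraries Tlr7 had 177, 176 and 174 CPM in the myelin libraries, against 182, 193 and 184 CPM in the DMSO libraries, a log2 fold change of -0.09 ± 0.05 that did not pass the test (adjusted p = 0.14).

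Microglia are the resident macrophages of the brain, and they take up myelin debris when oligodendrocytes or their sheaths are damaged. Myelin is rich in cholesterol, which the cells cannot break down, so a loaded cell stores it as esters in lipid droplets or exports it. Cholesterol in the endoplasmic reticulum keeps the transcription factor SREBP2 inactive and thereby lowers the genes of sterol synthesis and uptake, while oxidised sterols and desmosterol activate the liver X receptors (LXR), which raise the genes of cholesterol export.

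The promoters of the genes that moved together are shown first. Sequences are from RefSeq promoters of GRCm38.p6, which run from 250 bases before to 50 after the start site, are written 5′ to 3′ in the direction of the gene, and match 10345 of the 14467 symbols tested. The promoter of Hmgcs1, which makes the precursor of mevalonate, is given whole because it is the only 1 of 17 cholesterol synthesis promoters with the classic sterol element TCACNCCAC, and capitals mark that element and its 4 CCAAT boxes, counted on either strand.
Hmgcs1, chr13:119690101-119690400, plus strand: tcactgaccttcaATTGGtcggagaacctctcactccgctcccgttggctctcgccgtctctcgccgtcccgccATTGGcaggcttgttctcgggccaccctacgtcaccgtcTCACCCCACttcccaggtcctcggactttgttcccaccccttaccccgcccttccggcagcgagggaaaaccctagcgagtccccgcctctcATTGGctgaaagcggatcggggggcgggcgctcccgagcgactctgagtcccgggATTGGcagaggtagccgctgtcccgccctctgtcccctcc
CCAAT, which the factor NF-Y binds beside SREBP sites, was in 16 of these 17 promoters (94.1%), against 43% of the promoters of all genes tested, 78.8% of those of the cell cycle list and 67.9% of those of genes lower beyond 2-fold; the sterol element was in 1.4% of the promoters of all genes tested. Windows around the box, in capitals, follow for genes of the same pathway.
Idi1, chr13:8885535-8885591, plus strand: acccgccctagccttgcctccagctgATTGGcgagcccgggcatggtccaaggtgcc
Lss, chr10:76531517-76531573, plus strand: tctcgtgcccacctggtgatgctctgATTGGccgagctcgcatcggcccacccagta
Cyp51, chr5:4104696-4104752, minus strand: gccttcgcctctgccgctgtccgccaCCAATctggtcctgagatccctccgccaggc
The paired half-sites GAAANNGAA of an interferon-stimulated response element were in 29 of 54 interferon gene promoters (53.7%), against 8.86% of all. Capitals mark them on either strand, overlapping matches run together.
Rsad2, chr12:26456537-26456597, minus strand: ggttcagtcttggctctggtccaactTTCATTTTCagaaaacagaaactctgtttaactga
Isg15, chr4:156200862-156200922, minus strand: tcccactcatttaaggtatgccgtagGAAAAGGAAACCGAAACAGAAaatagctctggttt
Oas3, chr5:120777700-120777760, minus strand: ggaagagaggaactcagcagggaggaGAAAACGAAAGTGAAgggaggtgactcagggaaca
The cell cycle homology region TTTGAA, in capitals below on either strand, was in 14 of 33 cell cycle promoters (42.4%) and in 14.4% of all.
Top2a, chr11:99024181-99024238, minus strand: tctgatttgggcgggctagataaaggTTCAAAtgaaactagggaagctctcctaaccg
Ccnb2, chr9:70421519-70421576, minus strand: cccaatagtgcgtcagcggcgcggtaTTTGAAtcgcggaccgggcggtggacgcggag
Cdc20, chr4:118437330-118437387, minus strand: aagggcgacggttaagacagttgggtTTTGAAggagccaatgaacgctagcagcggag
The CLEAR element TCACGTGA, bound by TFEB-family factors, was in 5 of 27 lysosome promoters (18.5%) and in 2.11% of all, and is shown for the lysosomal calcium channel Mcoln1.
Mcoln1, chr8:3500447-3500506, plus strand: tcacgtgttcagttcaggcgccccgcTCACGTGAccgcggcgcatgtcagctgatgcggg
These matches describe the letters of the windows and are no evidence of binding.

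Myelin changed a large part of the transcriptome, mostly by small amounts. Of 14468 genes tested with edgeR's quasi-likelihood test, 5691 (39.3%) passed an adjusted p (Benjamini-Hochberg) of 0.05, of which 2887 (20.0% of those tested) were higher and 2804 (19.4%) lower with myelin. The split depended on the scaling: with library totals alone, which shift the median log2 ratio by -0.07, 2011 genes were higher and 3785 lower, so small changes are relative to the trimmed-mean (TMM) scaling used here. The median absolute log2 fold change of the called genes was 0.35, and 4987 of them lay within 2-fold. Myelin and DMSO libraries did not overlap for 7132 genes (49.3%). Tested for a change beyond 2-fold, 83 genes (0.574%) were higher and 118 (0.816%) lower. Log2 fold changes are given below as myelin over DMSO with their standard error, and levels as CPM with TMM scaling. Counts of called list members below are to be read against the 20.0% higher and 19.4% lower over all genes tested.

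**Figure D1:**
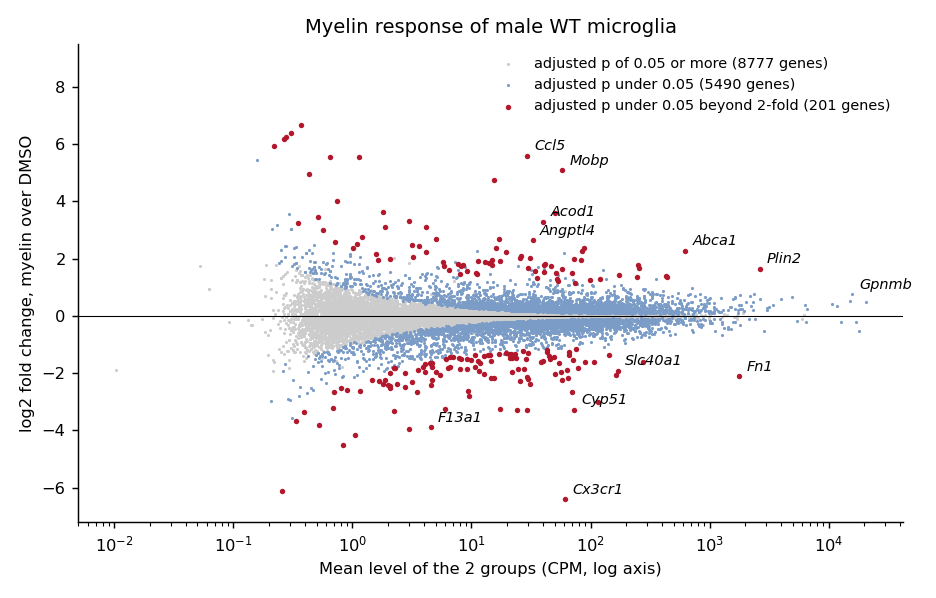
Each point is 1 of 14468 tested genes in male WT microglia, with its mean level in CPM on a log axis and its log2 fold change of myelin over DMSO. Most of the called genes lie within 2-fold, and 201 red genes passed the test beyond 2-fold, among them Cx3cr1 at -6.41 and Ccl5 at 5.59.

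Cx3cr1, the microglial receptor for neuronal fractalkine (ENSMUSG00000052336, chr9:119901616-120069879, minus strand), had 1.36, 1.88 and 1.004 CPM in the myelin libraries, against 123, 126 and 114 CPM in the DMSO libraries. All myelin libraries lay far below all DMSO libraries, and the gene fell by 6.41 ± 0.16 on the log2 scale (adjusted p = 6.6e-17). Ccl5, a chemokine that draws T cells and monocytes (ENSMUSG00000035042, chr11:83525778-83530518, minus strand), had 60.8, 52.9 and 58.5 CPM in the myelin libraries, against 1.12, 1.49 and 0.956 CPM in the DMSO libraries, a rise of 5.59 ± 0.30 (adjusted p = 3.9e-11) with no overlap. The 12 genes of at least 10 CPM that rose most were Ccl5, Mobp, Plekhb1, H2-M2, Acod1, H2-Q7, Angptl4, Clmp, Rsad2, Abca1, Cxcl3 and Oasl1. Among the 12 that fell most were Cx3cr1, Stard4, Cyp51, Cd34, Idi1, Mlxipl, Insig1, Gpr34, Fdft1 and Hsd17b7. Fam107a had 2.08, 2.44 and 2.13 CPM in the myelin libraries, against 0, 0 and 0.120 CPM in the DMSO libraries, at most 3 counts in any DMSO library, and no fold is given for it.

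**Figure D2:**
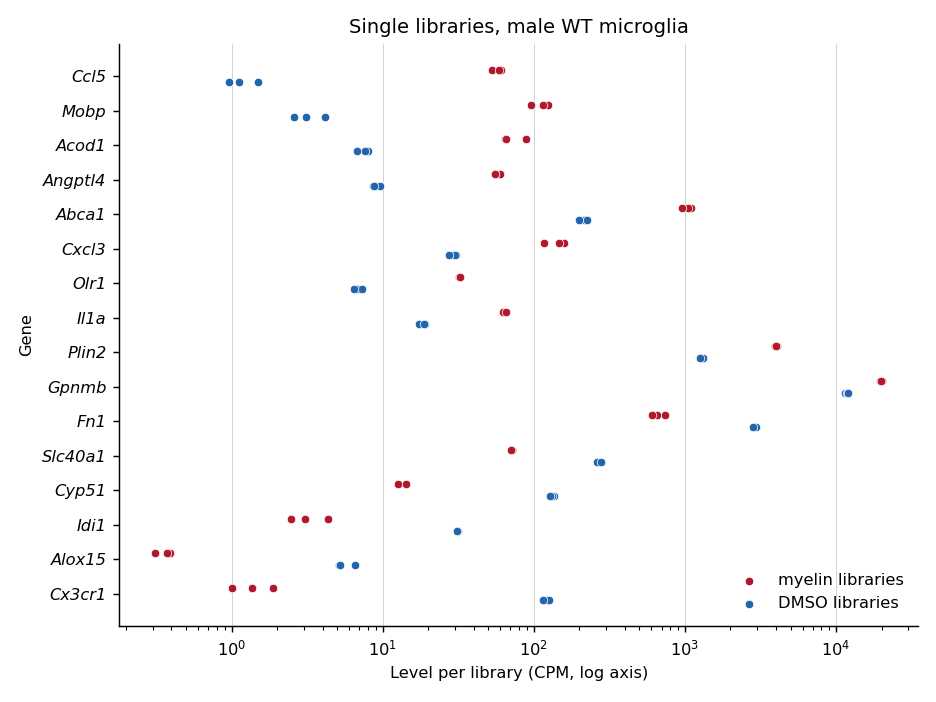
Levels of 16 genes in single male WT libraries, in CPM on a log axis; red points are the 3 myelin libraries and blue points the 3 DMSO libraries of each gene. The groups are apart for every gene drawn, from Alox15 at 0.314 to 0.390 CPM with myelin to Gpnmb at 19616 to 20169 CPM with myelin.

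Every measured enzyme of cholesterol synthesis was lower with myelin. All 22 genes of the list passed the test, their median log2 fold change was -1.72 against 0.0037 over all genes tested, and 17 passed beyond 2-fold. Summed over the list, the level was 349.6 to 356 CPM in the myelin libraries and 1155 to 1210 CPM in the DMSO libraries. The list was chosen with earlier results of these data known, so its direction is no independent evidence. Hmgcs1, whose promoter is printed above, had 34.7, 35.4 and 33.9 CPM in the myelin libraries, against 121, 125 and 120.2 CPM in the DMSO libraries. Its groups did not overlap, and its log2 fold change was -1.82 ± 0.05 (adjusted p = 7.0e-35).

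Some later steps fell further. Idi1, which isomerises the isoprene unit, had 2.47, 4.31 and 3.07 CPM in the myelin libraries, against 31.7, 31.1 and 31.0 CPM in the DMSO libraries, a log2 fold change of -3.24 ± 0.11. Cyp51, the lanosterol demethylase (ENSMUSG00000001467, chr5:4081145-4104746, minus strand), had 14.3, 12.56 and 14.2 CPM in the myelin libraries, against 136, 132 and 129 CPM in the DMSO libraries, a log2 fold change of -3.27 ± 0.06. The groups were apart for both genes, whose CCAAT boxes are printed above. Squalene synthase Fdft1 changed by -2.39 ± 0.08 and squalene epoxidase Sqle by -2.24 ± 0.06. The smallest losses of the list, picked out after their values were seen, were those of Ggps1 at -0.26 ± 0.09, which serves protein prenylation, of Ebp at -0.29 ± 0.07 and of Dhcr7 at -0.53 ± 0.05. Fdft1 lies opposite the far more abundant Ctsb, and Cyp51 opposite Akap9; whether counting used the strand is not given in the sources used here, so reads of such pairs may not have been told apart.

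Genes of sterol sensing and uptake moved in both directions. Of 18 tested, 9 fell and 5 rose (median -0.27). Insig1, the retention factor that holds SREBP in the endoplasmic reticulum (ENSMUSG00000045294, chr5:28071363-28078662, plus strand), had 20.7, 17.5 and 19.6 CPM in the myelin libraries, against 121, 123 and 117 CPM in the DMSO libraries. The libraries of each group were close together and the groups far apart, with a log2 fold change of -2.64 ± 0.06 (adjusted p = 1.2e-32). The cytosolic sterol carrier Stard4 changed by -3.30 ± 0.09 and Srebf2, which encodes SREBP2, by -2.05 ± 0.05. Mylip, an LXR-driven ubiquitin ligase, rose by 1.17 ± 0.05, and the lysosomal cholesterol carrier Npc2 rose by 0.59 ± 0.06. Scap, the escort of SREBP, was at 0.00 ± 0.05 (adjusted p = 0.99).

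**Figure D3:**
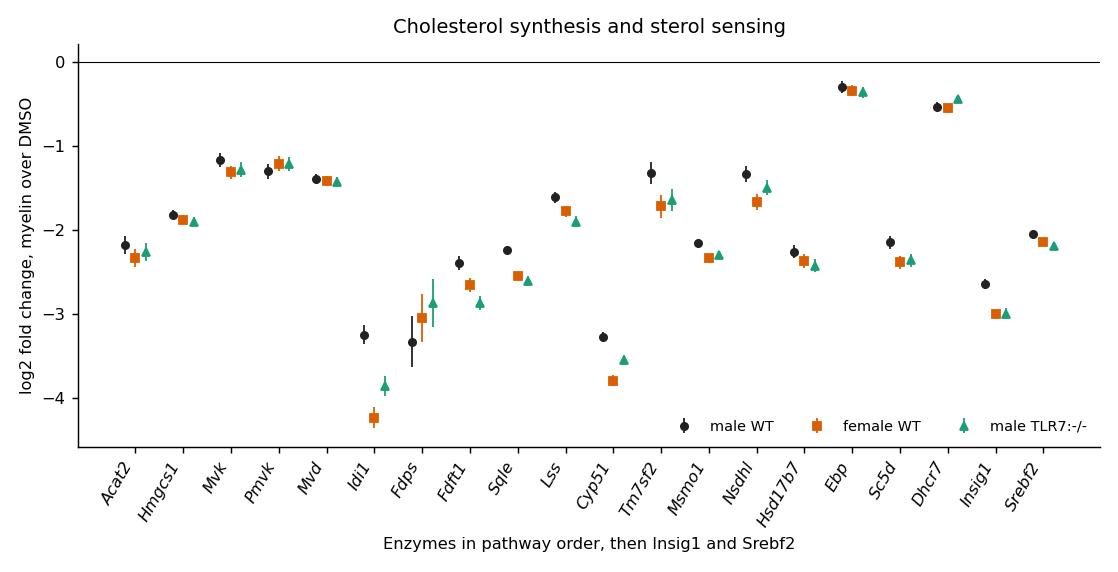
Log2 fold change of myelin over DMSO, with its standard error, for cholesterol synthesis enzymes in pathway order and for Insig1 and Srebf2, in male WT, female WT and male TLR7:-/- microglia. Every point is below 0; for Idi1 and Cyp51 the male WT value is the least negative of the 3.

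Genes of the LXR and cholesterol export list moved in both directions. The list of 18 tested genes split into 8 higher and 8 lower (median 0.06). Abca1, the pump that loads cholesterol onto apolipoproteins (ENSMUSG00000015243, chr4:53030787-53159895, minus strand), had 1101, 1043 and 963 CPM in the myelin libraries, against 214, 225 and 199 CPM in the DMSO libraries, with every myelin library above every DMSO library and a log2 fold change of 2.28 ± 0.09 (adjusted p = 3.0e-13). Abcg1, the second exporter, rose by 1.68 ± 0.04 and the receptor LXRα itself (Nr1h3) by 1.36 ± 0.14. Apoe, the main apolipoprotein of the brain, fell by 0.21 ± 0.02. Cyp27a1, which makes an oxysterol, changed by -1.55 ± 0.14, and Scarb1, a receptor for high-density lipoprotein, by -0.85 ± 0.05.

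Lipid storage genes were mostly higher. Among 21 tested genes of lipid droplets 15 rose and 3 fell (median 0.36). Plin2, the coat protein of lipid droplets, had 4076, 3943 and 4003 CPM in the myelin libraries, against 1267, 1314 and 1265 CPM in the DMSO libraries. Every myelin library was far above every DMSO library, with a log2 fold change of 1.64 ± 0.03 (adjusted p = 2.5e-44). Hilpda, an inhibitor of lipolysis on droplets, rose by 1.97 ± 0.06, the fatty acid chaperone Fabp4 by 1.05 ± 0.04, the fatty acid translocase Cd36 by 0.73 ± 0.03 and Soat1, which esterifies cholesterol, by 0.37 ± 0.03. Lower were Lipe, the hormone-sensitive lipase, at -0.51 ± 0.11 and the secreted lipase Lpl at -0.23 ± 0.03.

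Most called genes of fatty acid oxidation rose and most of fatty acid synthesis fell. Of 23 tested genes of the PPAR and oxidation list 14 rose and 4 fell (median 0.24). Angptl4, a PPAR target that inhibits lipoprotein lipase, had 59.9, 55.1 and 55.0 CPM in the myelin libraries, against 9.53, 8.67 and 8.79 CPM in the DMSO libraries, with the groups far apart and a log2 fold change of 2.65 ± 0.08 (adjusted p = 1.6e-34). Acadl, which oxidises long chains in mitochondria, rose by 0.84 ± 0.04 and Cpt1a, which admits them, by 0.55 ± 0.03, whereas Pparg itself changed by -0.49 ± 0.10. In the synthesis list 14 of 28 tested genes fell and 5 rose (median -0.24): Fasn, the fatty acid synthase, by -0.77 ± 0.05, the desaturase Fads2 by -1.50 ± 0.23, the elongase Elovl6 by -1.32 ± 0.20 and the ligase Acsl3 by -1.86 ± 0.12. The ligase Acsl1 rose by 1.08 ± 0.05, and the desaturase Scd2 was at -0.02 ± 0.04 (adjusted p = 0.68). Mlxipl, the carbohydrate-responsive factor ChREBP, changed by -2.80 ± 0.14.

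Most lysosomal genes rose, none of them beyond 2-fold. Of 32 tested genes of the lysosomal membrane, proton pump and their regulators, 26 rose and 4 fell (median 0.31), and their summed level was 35070 to 35870 CPM with myelin and 24020 to 24750 CPM with DMSO. Gpnmb, a transmembrane glycoprotein of phagolysosomes and the most abundant of these, had 20169, 19616 and 19976 CPM in the myelin libraries, against 11461, 11881 and 12032 CPM in the DMSO libraries, without overlap and with a log2 fold change of 0.76 ± 0.03 (adjusted p = 2.2e-25). Gpnmb alone carried a large part of the summed level in both groups, so the rise of the sum largely follows this gene. Cd68, a lysosomal membrane protein of macrophages, rose by 0.64 ± 0.03 and Lamp1 by 0.25 ± 0.03. The 4 that fell were Slc17a5, the sialic acid exporter, at -0.54 ± 0.06, the pump subunit Atp6v0a1 at -0.33 ± 0.03 and the transcription factors Mitf at -0.32 ± 0.04 and Tfeb at -0.25 ± 0.06.

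Proteases followed the same pattern, with 11 of 17 cathepsins and inhibitors higher and 3 lower (median 0.32). Ctsk, the collagen-degrading cathepsin, rose by 1.84 ± 0.11, the inhibitor Cst7 by 1.20 ± 0.06, Ctsb by 0.41 ± 0.02 and Ctsd by 0.37 ± 0.02, while Ctsc, which activates serine proteases, changed by -0.62 ± 0.03. Breakdown of sphingolipids, the other main lipids of myelin, gave 10 genes (50%) higher and 4 (20%) lower of 20 tested (median 0.07). Over all genes tested 20.0% were higher and 19.4% lower. With library totals alone 8 sphingolipid genes were higher and 7 lower. The galactosidase Gla rose by 0.63 ± 0.04 and Psap, the precursor of the saposins, by 0.51 ± 0.02; Galc, which degrades the myelin lipid galactosylceramide, changed by -0.25 ± 0.05.

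Receptors for uptake went both ways, with 14 of 40 higher and 20 lower (median -0.12). Olr1, a scavenger receptor for oxidised lipoprotein, had 32.4, 32.0 and 32.6 CPM in the myelin libraries, against 6.89, 7.31 and 6.46 CPM in the DMSO libraries, the groups far apart, and rose by 2.23 ± 0.10 (adjusted p = 3.6e-25). Cd300lf, a lipid-binding receptor, rose by 1.36 ± 0.06, the galectin Lgals3 by 0.67 ± 0.03 and the scavenger receptor Msr1 by 0.40 ± 0.03. Timd4, a phosphatidylserine receptor, changed by -2.50 ± 0.35, the bridging ligand Pros1 by -1.01 ± 0.06, the receptor Axl by -0.52 ± 0.04 and the lipid sensor Trem2 by -0.13 ± 0.03.

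**Figure D4:**
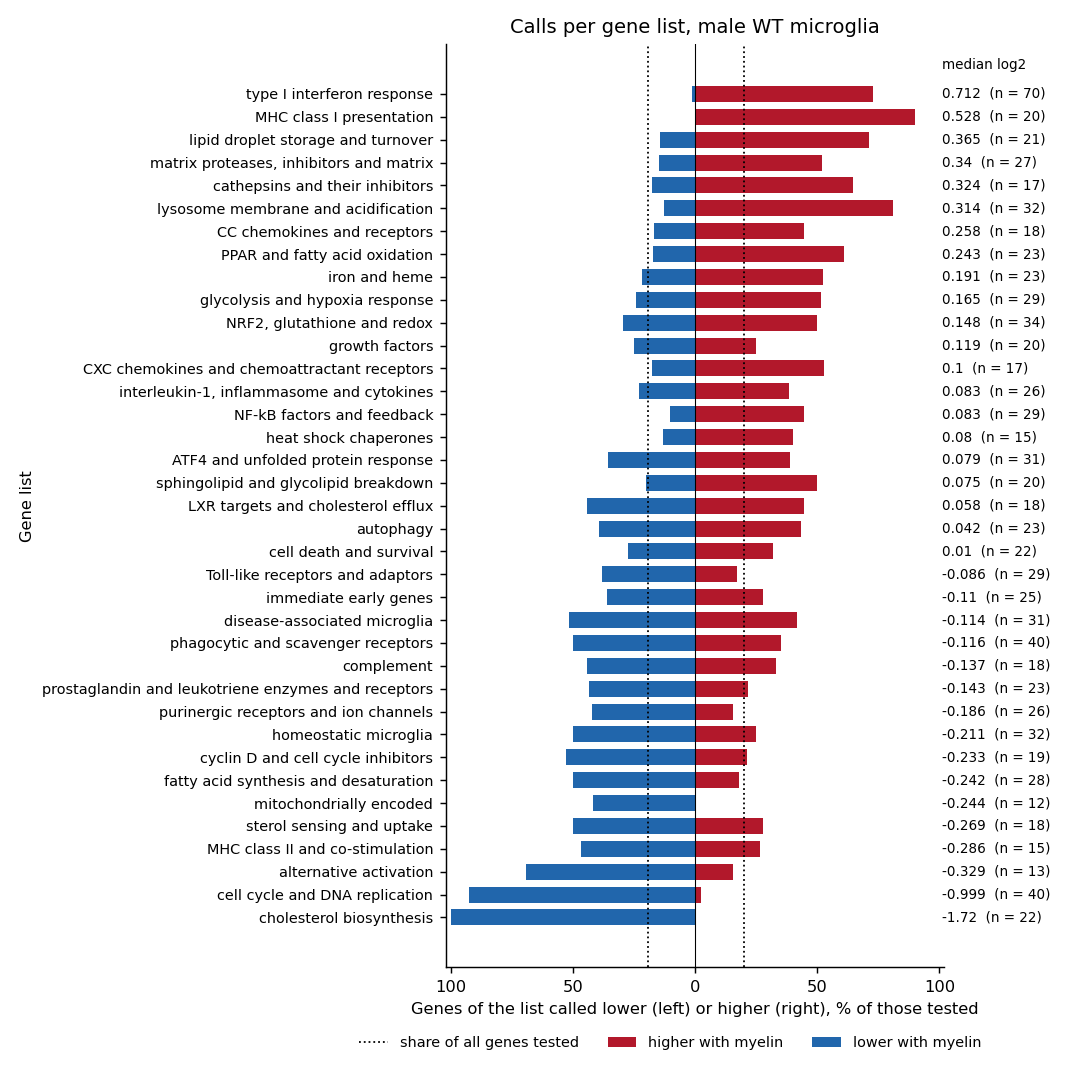
For each gene list, bars give the share of its tested genes called higher (red, to the right) and lower (blue, to the left) with myelin in male WT microglia, ordered by the median log2 fold change printed at the right with the number tested; dotted lines mark the shares over all genes tested, 20.0% higher and 19.4% lower. Interferon and MHC class I lists stand at the top, and cell cycle and cholesterol synthesis at the bottom.

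Genes of the homeostatic microglial state were more often lower than higher. Of 32 tested genes 16 fell and 8 rose (median -0.21), or 18 and 4 with library totals alone. Beside Cx3cr1, Gpr34, a lysophosphatidylserine receptor, had 1.75, 2.44 and 3.70 CPM in the myelin libraries, against 15.2, 16.96 and 16.6 CPM in the DMSO libraries, below the DMSO libraries in each case, and changed by -2.62 ± 0.15 (adjusted p = 2.3e-21). The ADP receptor P2ry12 changed by -1.01 ± 0.12, Fcrls by -1.01 ± 0.06 and Csf1r, the receptor for the survival factor of microglia, by -0.65 ± 0.03. In the other direction Olfml3 rose by 0.50 ± 0.05. The microglial transcription factor Sall1 was at 0.01 ± 0.12 (adjusted p = 0.94), and Tmem119 at 0.38 ± 0.15 (adjusted p = 0.038), a call that was lost with library totals alone (0.31, adjusted p = 0.11), with no filter on low counts, with DESeq2, with limma-voom, without robust moderation and without DMSO replicates 1, 2 or 3 (0.37, 0.40 and 0.38, adjusted p = 0.090, 0.064 and 0.086) or myelin replicates 2 or 3 (0.35 and 0.33, adjusted p = 0.11 and 0.13). Cx3cr1 shares its locus with Csrnp1 and Gorasp1 on its strand and Wdr48 opposite, and Gpr34 lies opposite Cask.

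The set of genes known from disease-associated microglia, which surround plaques and damaged myelin, did not move as one. Among 31 tested 13 rose and 16 fell (median -0.11). Cst7, Gpnmb, Lgals3 and Ctsb rose, as given above, while Spp1, the osteopontin gene, changed by -0.21 ± 0.03, the integrin Itgax by -0.38 ± 0.04, the lysozyme Lyz2 by -0.53 ± 0.03 and the growth factor Igf1 by -0.16 ± 0.03. F13a1, a coagulation factor of border-associated macrophages, changed by -3.88 ± 0.26. Over the list of those macrophages 6 of 10 tested genes fell and 3 rose, with a summed level of 3930 to 4100 CPM with myelin and 4380 to 4660 CPM with DMSO; its members Ms4a7 and Clec12a changed by 1.27 ± 0.05 and -1.42 ± 0.08.

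Among inflammatory cytokines and chemokines more genes were called higher than lower. Il1a, the alarmin interleukin, had 62.3, 62.6 and 65.9 CPM in the myelin libraries, against 19.0, 17.3 and 18.8 CPM in the DMSO libraries, with no overlap and a log2 fold change of 1.79 ± 0.07 (adjusted p = 3.9e-30). Il1b rose by 1.51 ± 0.25, the receptor antagonist Il1rn by 1.41 ± 0.04 and Tnf by 0.85 ± 0.09, whereas Il18 and the receptor Il10ra changed by -0.48 ± 0.18 and -0.96 ± 0.06. Over the cytokine and inflammasome list 10 of 26 tested genes rose and 6 fell (median 0.08). Acod1, which makes itaconate in activated macrophages (ENSMUSG00000022126, chr14:103046977-103056573, plus strand), had 88.6, 64.4 and 65.0 CPM in the myelin libraries, against 7.95, 7.62 and 6.76 CPM in the DMSO libraries, again apart in every library, and rose by 3.29 ± 0.29 (adjusted p = 4.5e-08).

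Among CC chemokines and their receptors 8 of 18 rose and 3 fell (median 0.26). Beside Ccl5, the monocyte attractants Ccl2, Ccl7 and Ccl12 rose by 0.75 ± 0.06, 1.30 ± 0.10 and 1.46 ± 0.19, and the receptor Ccr2 changed by -1.88 ± 0.24. Cxcl3, a neutrophil attractant, had 158, 116 and 146 CPM in the myelin libraries, against 30.4, 29.9 and 27.5 CPM in the DMSO libraries, with the groups apart and a log2 fold change of 2.26 ± 0.14 (adjusted p = 5.5e-10). Cxcl2 rose by 0.65 ± 0.13. The interferon-induced Cxcl10 had 2.66, 1.375 and 1.69 CPM in the myelin libraries, against 1.41, 0.619 and 0.717 CPM in the DMSO libraries; the groups overlapped, and its rise of 1.05 ± 0.41 (adjusted p = 0.036) did not pass with library totals alone (0.97, adjusted p = 0.055), without robust moderation (adjusted p = 0.059), or without DMSO replicate 2 (0.84, adjusted p = 0.15), DMSO replicate 3 (0.90, adjusted p = 0.13), myelin replicate 1 (0.72, adjusted p = 0.24) or myelin replicate 3 (1.12, adjusted p = 0.052). In the CXC list 9 of 17 rose and 3 fell (median 0.10), or 5 and 4 with library totals alone.

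Genes of NF-kB and its feedback were called higher more often than lower, and many were not called. Nfkb1 and Rela changed by -0.20 ± 0.04 and -0.15 ± 0.05, while the inhibitor Nfkbia rose by 0.79 ± 0.05, the deubiquitinase Tnfaip3 by 0.74 ± 0.04, the adaptor Traf1 by 2.77 ± 0.44 and the cytokine signalling inhibitor Socs3 by 1.02 ± 0.07. Of 29 tested genes of this kind 13 rose and 3 fell (median 0.08). Among Toll-like receptors and adaptors 5 of 29 rose (17.2%) and 11 fell (37.9%, median -0.09), or 5 and 16 with library totals alone. Over all genes tested 20.0% were higher and 19.4% lower. Tlr2, which senses lipoproteins, was at 0.49 ± 0.08 and the DNA sensor Tlr9 at -0.69 ± 0.17.

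Of 23 tested genes of lipid mediators 5 (21.7%) were higher and 10 (43.5%) lower (median -0.14), against 20.0% and 19.4% of all genes tested. Ptges, the inducible prostaglandin E synthase, had 22.4, 15.2 and 15.9 CPM in the myelin libraries, against 4.53, 5.20 and 4.42 CPM in the DMSO libraries, without overlap, and rose by 1.91 ± 0.16 (adjusted p = 3.3e-12); the cyclooxygenase Ptgs2 rose by 1.19 ± 0.25 and its constitutive relative Ptgs1 changed by -0.58 ± 0.04. Alox15, a lipoxygenase that makes resolving lipid mediators, had 0.390, 0.375 and 0.314 CPM in the myelin libraries, against 6.53, 5.14 and 5.20 CPM in the DMSO libraries, every myelin library below every DMSO library, and changed by -3.94 ± 0.31 (adjusted p = 4.8e-16). Hpgd, which inactivates prostaglandins, changed by -2.20 ± 0.09 and the leukotriene enzyme Alox5 by -1.05 ± 0.07.

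Complement, matrix and iron genes moved in both directions. The complement genes C1qa and C1qc changed by -0.28 ± 0.03 and -0.53 ± 0.03, and C3 rose by 0.47 ± 0.08, in a list of 18 with 6 higher and 8 lower, 1 each way beyond 2-fold (median -0.14), where the 6 became 3 without DMSO replicate 3 or without myelin replicate 2. Fn1, the fibronectin gene, had 648, 742 and 604 CPM in the myelin libraries, against 2865, 2944 and 2819.9 CPM in the DMSO libraries, far lower in each myelin library, and changed by -2.11 ± 0.09 (adjusted p = 7.0e-13). In the matrix list 14 of 27 rose and 4 fell (median 0.34), among them the protease inhibitor Serpinb2 at 1.93 ± 0.15 and the membrane protease Mmp14 at 0.92 ± 0.04.

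Slc40a1, the iron exporter ferroportin (ENSMUSG00000025993, chr1:45908068-45926523, minus strand), had 72.2, 71.9 and 70.5 CPM in the myelin libraries, against 267, 262 and 277 CPM in the DMSO libraries. The myelin libraries were within 2 CPM of each other and well below the DMSO libraries, and the change was -1.91 ± 0.05 (adjusted p = 2.5e-33). The iron oxidase Heph rose by 2.45 ± 0.20 and the iron store Fth1 by 0.50 ± 0.02. Of 23 iron and heme genes 12 (52.2%) rose and 5 (21.7%) fell (median 0.19), against 20.0% and 19.4% of all genes tested. With library totals alone 10 iron and heme genes rose and 8 fell. In the redox list 17 of 34 rose and 10 fell (median 0.15), with mitochondrial superoxide dismutase Sod2 at 0.96 ± 0.05, the peroxiredoxin Prdx6 at 0.64 ± 0.04, the glutathione synthesis subunit Gclm at -0.79 ± 0.06 and catalase (Cat) at -0.77 ± 0.05.

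Interferon-stimulated genes rose together, with a wide spread between libraries. Of 70 tested genes 51 rose and 1, the transcription factor Irf1 at -0.37 ± 0.08, fell (median 0.71). The summed level was 8735, 7666 and 8119 CPM in the myelin libraries and 4881, 5636 and 4423 CPM in the DMSO libraries. DMSO replicate 3 was the lowest of its group for 64 of the 70 genes and myelin replicate 1 the highest for 63, so the spread is shared across the list. Without DMSO replicate 3 the count of higher genes was 32, and without any other single library of the 2 groups it was 37 to 51.

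Rsad2, the antiviral enzyme viperin (ENSMUSG00000020641, chr12:26442746-26456452, minus strand), had 176, 118 and 149 CPM in the myelin libraries, against 30.02, 39.7 and 15.6 CPM in the DMSO libraries, with all myelin libraries above all DMSO libraries and a log2 fold change of 2.38 ± 0.39 (adjusted p = 8.7e-05). Isg15, a ubiquitin-like modifier, had 67.3, 54.6 and 63.3 CPM in the myelin libraries, against 18.5, 26.1 and 15 CPM in the DMSO libraries, also apart, and rose by 1.64 ± 0.38 (adjusted p = 0.0019). Irf7, which drives interferon production and overlaps Phrf1 on the opposite strand, rose by 1.60 ± 0.34, and Ifit3, whose copy Ifit3b may share its reads, by 2.21 ± 0.44. Ifi27l2a was at -0.66 ± 0.29 (adjusted p = 0.086).

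Genes of MHC class I presentation rose, and called genes of class II fell more often than they rose. Of 20 class I genes tested 18 rose (median 0.53), and the proteasome genes Psmb9 and Psme1 were at 0.13 ± 0.09 and 0.10 ± 0.05 without passing the test, with a summed level of 6894 to 7474 CPM with myelin and 4718 to 5012 CPM with DMSO. H2-Q7, a non-classical class I molecule, had 34.3, 27.6 and 26.3 CPM in the myelin libraries, against 4.94, 5.26 and 3.41 CPM in the DMSO libraries, apart in every library, and rose by 2.70 ± 0.19; its reads may be split with near-identical genes of the H2-Q group. The invariant light chain B2m rose by 0.49 ± 0.05, the peptide transporter Tap1 by 0.60 ± 0.14 and the loading chaperone Tapbp by 0.88 ± 0.10. H2-M2, a class I-like gene outside the list, had 110.2, 77.3 and 89.8 CPM in the myelin libraries, against 7.06, 6.81 and 8.79 CPM in the DMSO libraries and rose by 3.61 ± 0.23. In the class II list 7 of 15 fell and 4 rose (median -0.29): Cd74, the invariant chain, had 39.1, 35.8 and 36.3 CPM in the myelin libraries, against 94.1, 97.0 and 94.2 CPM in the DMSO libraries, well below in each myelin library, and changed by -1.36 ± 0.05. The peptide exchanger H2-DMa changed by -1.28 ± 0.08, while the T cell inhibitor Cd274 rose by 0.94 ± 0.04.

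Genes of the cell cycle fell almost throughout. Of 40 tested 37 fell and 1, the licensing factor Cdt1 at 0.23 ± 0.05, rose (median -1.0), and the summed level was 583.3 to 627.2 CPM with myelin and 907 to 921.6 CPM with DMSO. Top2a, the DNA topoisomerase of dividing cells, had 13.8, 12.3 and 11.7 CPM in the myelin libraries, against 35.5, 35.5 and 34.4 CPM in the DMSO libraries, less in every myelin library, and changed by -1.48 ± 0.08 (adjusted p = 6.0e-22). The mitotic cyclin Ccnb2 changed by -2.32 ± 0.25, the kinase Aurkb by -1.81 ± 0.17, the kinetochore protein Cenpf by -2.0 ± 0.30 and the proliferation marker Mki67 by -1.0 ± 0.10. In bulk samples fewer dividing cells and less RNA per dividing cell cannot be told apart. D-type cyclins and inhibitors gave 10 lower and 4 higher of 19, with the inhibitor Cdkn1a at 0.19 ± 0.03 and Cdkn1b at -0.78 ± 0.09.

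Other lists were mixed. Of 29 glycolysis and hypoxia genes 15 rose and 7 fell (median 0.17), with the growth factor Vegfa at 0.88 ± 0.09 and the regulator Pfkfb3 at 0.80 ± 0.05. The unfolded protein and ATF4 list gave 12 higher and 11 lower of 31. Alternative activation markers gave 9 lower and 2 higher of 13 (median -0.33), with the chitinase-like Chil3 at -0.97 ± 0.20, arginase (Arg1) at -0.16 ± 0.03 and the transglutaminase Tgm2 at 2.02 ± 0.09. Mitochondrially encoded genes were lower in 5 of 12 cases and otherwise did not pass the test, and their share of all counts was 1.18 to 1.24% with myelin and 1.44 to 1.51% with DMSO.

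A few transcripts of oligodendrocytes were far higher in the myelin libraries, and most others were not. Mobp, a structural gene of compact myelin (ENSMUSG00000032517, chr9:120149707-120181484, plus strand), had 125, 96.5 and 114 CPM in the myelin libraries, against 2.59, 4.15 and 3.11 CPM in the DMSO libraries, with the groups far apart and a log2 fold change of 5.09 ± 0.27 (adjusted p = 3.9e-11). Mbp, the myelin basic protein gene, had 416, 352 and 388 CPM in the myelin libraries, against 100.1, 117 and 116 CPM in the DMSO libraries, also apart, a change of 1.80 ± 0.15. Plekhb1, which oligodendrocytes express strongly, changed by 4.74 ± 0.31. Cnp, an enzyme of myelin, was at -0.07 ± 0.05 (adjusted p = 0.29) and Mag at -0.59 ± 0.12 (adjusted p = 2.8e-05). Of 23 tested genes of the oligodendrocyte list 3 rose (13%) and 3 fell (13%), against 20.0% and 19.4% of all genes tested. With library totals alone 3 rose and 5 fell. The summed level was 673 to 784 CPM with myelin and 325 to 377 CPM with DMSO. Whether these transcripts were carried in with the added myelin or made in the culture was not tested.

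Markers of other cell types were low in both groups. Summed over its list, oligodendrocyte precursors reached 204 to 225 CPM with myelin and 221 to 232 CPM with DMSO, astrocytes 87.4 to 96.8 and 107 to 111 CPM, and neurons 21.1 to 22.1 and 21.1 to 22.7 CPM. Over all genes tested 20.0% were called higher and 19.4% lower. Of 9 tested neuronal genes 2 (22.2%) were called higher, near that share, and 0 lower, or 2 and 1 with library totals alone. Both higher genes lie outside the rule for named genes and were picked out after their values were seen. Nrgn, which encodes the synaptic protein neurogranin, had 13, 21 and 6 counts in the myelin libraries, against 1, 0 and 0 counts in the DMSO libraries, and no fold is given for it. Snap25, of the synaptic vesicle fusion machinery, had 11, 19 and 19 counts in the myelin libraries, against 4, 4 and 12 counts in the DMSO libraries, and the groups overlapped. The precursor list had 8 genes lower and 2 higher of 11 and the higher ones included Bcas1, which also marks newly formed oligodendrocytes, at 1.90 ± 0.18; among 15 astrocyte genes Aldh1l1 changed by -2.04 ± 0.13 and S100b, which lies opposite Dip2a, by 2.49 ± 0.27. Genes of microglia and macrophages summed to 10600 to 10900 CPM with myelin and 11400 to 11800 CPM with DMSO, and all 16 were detected. Of these 16 genes 12 were called lower and 4 higher (median -0.256). Levels within the list differed widely: P2ry12 had 5.31 to 7.73 CPM with myelin and 13.2 to 14.5 CPM with DMSO. Tmem119 had 6.82 to 7.97 and 5.71 to 5.94 CPM. For endothelium the sums were 103 to 109 and 105 to 112 CPM, for mural cells and fibroblasts 24.7 to 50.3 and 34.1 to 47.2 CPM, and for choroid plexus 148 to 213 and 131 to 228 CPM; no tested gene of the last 2 lists (6 and 8 genes) was called. Peripheral immune genes summed to at most 8.19 CPM with myelin and 10.1 CPM with DMSO, with 15 of 24 at 0 in all 6 libraries, and 6 of 7 erythroid genes were at 0 in all of them.

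Few genes differed in their response between male WT and female WT cultures. In female WT microglia 2794 genes (19.3%) were higher and 3046 (21.1%) lower with myelin, from libraries of their own. The difference between the responses, male WT minus female WT, passed the test for 6 genes (0.0415%). Idi1 and Cyp51 fell less in male WT, at -3.24 ± 0.11 and -3.27 ± 0.06, against -4.23 ± 0.13 and -3.79 ± 0.06 in female WT; the differences were 0.99 ± 0.21 (adjusted p = 0.031) and 0.52 ± 0.09 (adjusted p = 0.0064). Summed over the 22 synthesis genes, female WT libraries held 338.7 to 346.2 CPM with myelin and 1251 to 1294 CPM with DMSO. Slc40a1 also fell less in male WT, by a difference of 0.36 ± 0.06 (adjusted p = 0.0064).

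Zfp36, which destabilises cytokine mRNA, was at 0.08 ± 0.04 in male WT and -0.22 ± 0.04 in female WT, a difference of 0.29 ± 0.06 (adjusted p = 0.0081). Cyp4f18, which inactivates a leukotriene and lies opposite Zfp961, was at -0.46 ± 0.17 in male WT and 0.79 ± 0.16 in female WT, a difference of -1.25 ± 0.23 (adjusted p = 0.0064). The call of Cyp4f18 held whichever single library was left out. That of Idi1 was lost in most of those runs, at the lowest 0.72 without male WT myelin replicate 2 (adjusted p = 0.63), and those of Cyp51, Slc40a1 and Zfp36 were lost without male WT myelin replicate 1, at 0.47 (adjusted p = 0.084), 0.33 (adjusted p = 0.094) and 0.28 (adjusted p = 0.084). Slc40a1 and Zfp36 were also lost without male WT myelin replicate 2, at 0.34 (adjusted p = 0.086) and 0.27 (adjusted p = 0.10), and without female WT myelin replicate 1, at 0.31 (adjusted p = 0.070) and 0.25 (adjusted p = 0.12), and Zfp36 without male WT DMSO replicate 1, at 0.27 (adjusted p = 0.099), or female WT DMSO replicate 3, at 0.28 (adjusted p = 0.064). In the interferon list the median log2 fold change was 0.71 in male WT and 0.44 in female WT. Of its 70 tested genes 0 passed the test of that difference (median difference 0.222).

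Against male TLR7:-/- cultures more genes differed. With myelin 2602 genes (18.0%) were higher and 2928 (20.2%) lower in male TLR7:-/- microglia. Male WT minus male TLR7:-/- passed the test for 371 genes (2.56%), 257 with the WT response above and 114 below, and leaving out single libraries gave 142 to 224 above and 70 to 166 below. These differences use the same male WT libraries as those against female WT. Inhba, a subunit of activin, was at 1.36 ± 0.19 in male WT and -0.01 ± 0.18 in male TLR7:-/-, a difference of 1.37 ± 0.26 (adjusted p = 4.9e-04). Ptges rose by 1.91 ± 0.16 in male WT and was at 0.76 ± 0.17 in male TLR7:-/-, a difference of 1.15 ± 0.24 (adjusted p = 0.0029). H2-Q6 differed by 1.02 ± 0.28 (adjusted p = 0.043), but by 0.72 (adjusted p = 0.17) without male TLR7:-/- DMSO replicate 3, and its call was lost without several other libraries too.

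In the other direction E2f2, an activator of replication genes, differed by -1.0 ± 0.22 (adjusted p = 0.0041) and Sarnp, an RNA-binding export factor whose gene overlaps Dnajc14 on the same strand, by -1.44 ± 0.32 (adjusted p = 0.016). Cdca7, a target of E2F, differed by -1.34 ± 0.33 (adjusted p = 0.013), a call lost without male WT DMSO replicate 2 (-1.18, adjusted p = 0.066) or male WT myelin replicate 1 (-1.15, adjusted p = 0.061). Over the cell cycle list the median log2 fold change was -1.0 in male WT and -0.50 in male TLR7:-/-. Of its 40 tested genes 6 passed the test of that difference (median difference -0.366). The summed level with myelin was alike, at 583.3 to 627.2 CPM in male WT and 604.9 to 624.8 CPM in male TLR7:-/-. With DMSO it was 907 to 921.6 CPM in male WT and lower, 792.7 to 822 CPM, in male TLR7:-/-. Gpr34, picked out after its values were seen, differed by -0.88 ± 0.22 (adjusted p = 0.012), and by -0.70 (adjusted p = 0.096) without male WT myelin replicate 1, where the call was lost; without male TLR7:-/- myelin replicate 2 the adjusted p was 0.05.

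The interferon list turned on 1 male TLR7:-/- library. Its summed level was 4556, 4361 and 4038 CPM in male TLR7:-/- with myelin and 2586, 2751 and 4782 CPM with DMSO, where DMSO replicate 3 stood above its whole myelin group. With all libraries 11 of the 70 genes were higher and 4 lower with myelin in male TLR7:-/-, and 1 gene passed the difference from male WT (median difference 0.392). Without that replicate 48 were higher and 1 lower, and 0 genes passed the difference in edgeR's test (median difference -0.03), where 6 had an unadjusted p under 0.05 and limma-voom called 0 and DESeq2 1. Of 20 class I genes 9 were higher with myelin in male TLR7:-/- with all libraries and 13 without that replicate, and 3 passed the difference from male WT either way. In every single myelin library of male TLR7:-/- the interferon sum was below that of every male WT myelin library. With DMSO, male TLR7:-/- replicates 1 and 2 (2586 and 2751 CPM) were also below every male WT library (4881, 5636 and 4423 CPM). Replicate 3 (4782 CPM) lay within the male WT range, so with DMSO the lower sum was seen in replicates 1 and 2 only.

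**Figure D5:**
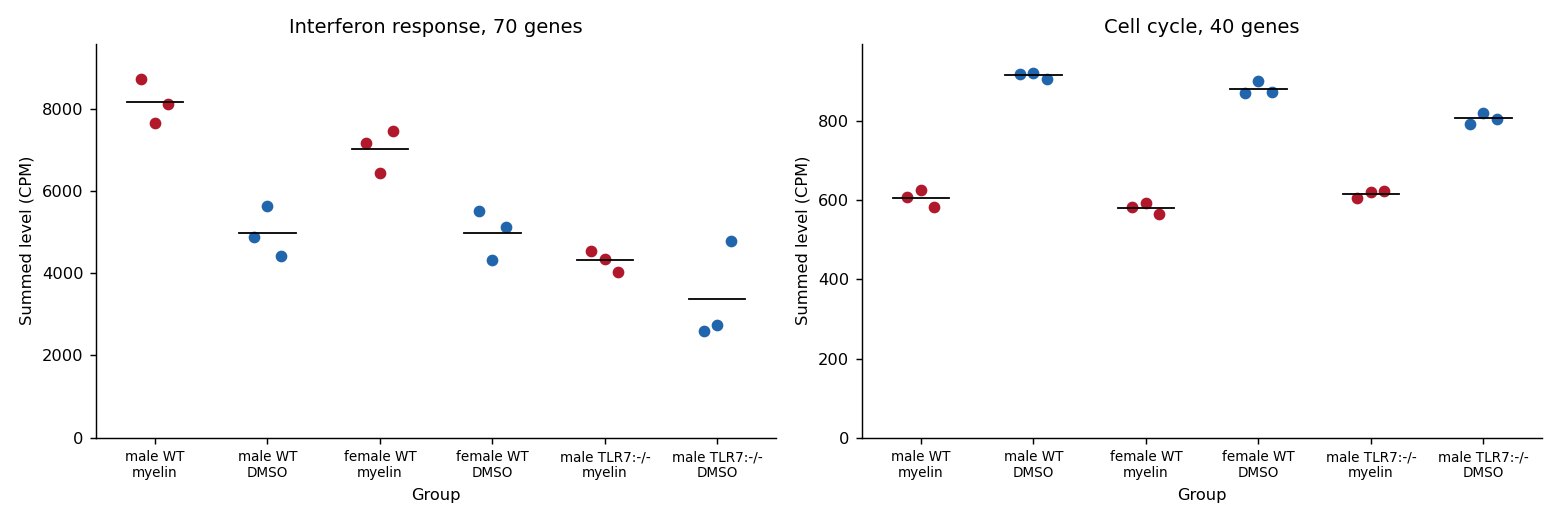
Summed level in CPM of 70 interferon-stimulated genes (left) and 40 cell cycle genes (right) in single libraries of male WT, female WT and male TLR7:-/- microglia, with myelin (red) beside DMSO (blue); black lines are means of 3 libraries. Cell cycle sums with myelin lie below those with DMSO in each of the 3 pairs, and 1 of the 3 male TLR7:-/- DMSO libraries stands apart in the interferon sum.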

How the data were processed

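Raw read counts per gene were deposited by the authors as 1 table of 54532 genes for 24 primary microglia libraries; the labels' protocols name a 3′-end kit (QuantSeq 3′ FWD). The submitters' processing notes name the builds GRCm38 and mm10 and DESeq2 1.38.3; which aligner and counter made the counts, and whether strand was used, is not given in the sources used here. Counts near the end of transcripts depend little on gene length, and no molecular identifiers are stated, so floors cover counting error only.

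Counts were fitted with edgeR 4.0.16 in R 4.3.3: TMM scaling, filterByExpr on the 8 groups, robust quasi-likelihood fit with 1 mean per group over all 24 libraries, glmTreat for changes beyond 2-fold and Benjamini-Hochberg adjustment over the 14468 genes tested. Differences between responses were contrasts of the same fit. Genes were called at an adjusted p under 0.05. A standard error is the absolute log2 fold change divided by the square root of F. Libraries of a group differed by more than sampling noise (chi-square per degree of freedom of 2.412 to 3.179 over genes of at least 100 counts), so none was merged. The fit was tested on simulated data first. Figures were drawn with matplotlib 3.10.9.

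Named genes were the key genes of each list, up to 3 called genes in each direction per list with the largest change (at least 2 CPM, groups not overlapping), the 12 largest in each direction over all genes (at least 10 CPM), genes with at most 3 counts in every library of 1 group and 30 or more in the other, and the 6 largest in each direction per difference (at least 4 CPM). Genes outside the rule are said to be picked after their values were seen or are uncalled list members. The lists, rules and motifs were chosen with earlier results of these data known. The leave-out checks of the interferon and MHC class I lists without male TLR7:-/- DMSO replicate 3 and of Gpr34 were chosen after seeing the data. Some named genes are not reported here. Other alternatives were other scalings, filters and tools (DESeq2 1.42.0, limma 3.58.1), a replicate block, fewer groups in the fit and leaving out each library.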

Additional observations from a re-analysis of the deposited data

Results flagged for a closer look

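The results below are those in which the myelin response of male WT microglia passed a test of its difference from another group. Between male WT and female WT 6 genes passed, and 5 of them had log2 differences, male WT minus female WT, of 0.99 ± 0.21 for Idi1, 0.52 ± 0.09 for Cyp51, 0.36 ± 0.06 for Slc40a1, 0.29 ± 0.06 for Zfp36 and -1.25 ± 0.23 for Cyp4f18. Idi1 and Cyp51 are enzymes of cholesterol synthesis. The call of Cyp4f18 held whichever library was left out, and those of Idi1, Cyp51, Slc40a1 and Zfp36 were lost without at least 1 library. With all libraries kept, Idi1, Cyp51, Slc40a1 and Zfp36 were also lost without robust moderation (adjusted p = 0.12, 0.065, 0.067 and 0.065). Idi1 and Cyp51 were lost with limma-voom (adjusted p = 0.53 and 0.078), and Idi1 with library totals alone (adjusted p = 0.062).

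Between male WT and male TLR7:-/- 371 genes passed. The largest differences with the WT response above were 1.37 ± 0.26 for Inhba, 1.15 ± 0.24 for Ptges, 1.03 ± 0.26 for Nr4a1, 1.03 ± 0.30 for Plet1, 1.02 ± 0.28 for H2-Q6 and 1.01 ± 0.29 for Tcim. The largest with the WT response below were -1.44 ± 0.32 for Sarnp, -1.34 ± 0.33 for Cdca7, -1.07 ± 0.28 for Cdh1, -1.03 ± 0.25 for Nxpe5, -1.01 ± 0.23 for Cyp4f18 and -1.0 ± 0.22 for E2f2. Inhba, Ptges, Sarnp, Cyp4f18 and E2f2 kept their calls whichever library was left out, and the other 7 lost theirs without at least 1 library. With all libraries kept, Plet1 and Tcim were also lost with limma-voom (adjusted p = 0.14 and 0.053) and without robust moderation (adjusted p = 0.093 and 0.065). Plet1 was lost with RLE scaling (adjusted p = 0.052) and library totals alone (adjusted p = 0.056), and Tcim with no filter on low counts (adjusted p = 0.061).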

How the results depend on the processing

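The count of 5691 called genes was 5275 to 5829 under the other scalings, filters, tools and fits, with 5248 of the main calls shared by DESeq2 (92.2%) and 4815 by library totals alone (84.6%). Leaving out single libraries gave 5034 to 5164 calls, 2413 to 2603 higher and 2506 to 2682 lower, and beyond 2-fold 173 to 184, 71 to 79 higher and 97 to 109 lower. DESeq2 called 75 genes lower beyond 2-fold in place of 118. The male against female difference passed for 2 genes without robust moderation (1 of them higher in male WT), for 3 higher genes with limma-voom, and for 3 to 6 in all, 2 to 5 higher and 1 lower, with single libraries left out: 3 in all without male WT myelin replicate 1 or 2 or female WT myelin replicate 1. Against male TLR7:-/- the 114 genes with the WT response below became 220 with library totals alone, 204 with no filter on low counts, 204 with a mean of at least 1 CPM and 176 with DESeq2. Leaving out single libraries gave 270 to 347 in all, 142 to 224 above (142 without male WT myelin replicate 1, 155 without male TLR7:-/- DMSO replicate 3, 159 without male TLR7:-/- myelin replicate 1) and 70 to 166 below (75 and 70 without male WT DMSO replicates 1 and 2, 73 without male WT myelin replicate 3). Hspa8, a constitutive chaperone, was at 0.02 (not called) and at -0.0589 (called) with library totals alone. Of 310 called named genes 25 lost the call or changed sign under some alternative; the causes were not tested. Same-numbered male WT myelin and DMSO libraries did not deviate together (correlations -0.0521, -0.0489 and 0.0473, against -0.062 to 0.106 for different numbers). These values showed no pairing, but with 3 libraries in each group they cannot exclude one. Female TLR7:-/- libraries were not part of that check. On the second principal component of the 24 libraries, female TLR7:-/- replicate 1 stood at 7.247 with DMSO and 12.1 with myelin. Replicates 2 and 3 stood at -4.819 and -9.508 with DMSO and at -7.687 and -5.265 with myelin. These libraries enter the pooled spread, and the fit of male WT libraries alone called 5829 genes. With the replicate block 5750 genes were called. Under the block H2-Q6 lost its call against male TLR7:-/- (adjusted p = 0.052).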

Other observations

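Several genes outside the lists above changed strongly. Clmp, an adhesion molecule, had 32.4, 20.6 and 27.9 CPM in the myelin libraries, against 4.002, 5.01 and 6.46 CPM in the DMSO libraries, a log2 fold change of 2.38 ± 0.18, with no overlap between the groups. Cd34, a surface sialomucin, had 1.30, 0.813 and 1.32 CPM in the myelin libraries, against 11.9, 11.5 and 9.27 CPM in the DMSO libraries, lower in every myelin library, and changed by -3.25 ± 0.32. The apoptosis gene Bmf changed by -1.93 ± 0.13, the potassium channel Kcnj2 by -1.20 ± 0.07 and the immediate early gene Egr3 by -2.24 ± 0.32.

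In the cell death list 7 of 22 tested genes rose and 6 fell, or 3 and 7 with library totals alone, and in the autophagy list 10 of 23 rose and 9 fell, or 3 and 10. Among purinergic receptors and ion channels 4 of 26 rose and 11 fell, and among growth factors 5 of 20 rose and 5 fell. Of 25 immediate early genes 7 rose and 9 fell, or 6 and 13 with library totals alone. Heat shock chaperones gave 6 of 15 higher and 2 lower, or 5 and 4 with library totals alone. Over all genes tested 20.0% were higher and 19.4% lower.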
